A study of Mus musculus with 9 samples.

Results

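*Col12a1*, *Col14a1*, *Col16a1* and *Col22a1* encode 4 fibril-associated collagens, and they were read by gene symbol in single-cell transcriptomes of the adult mouse knee, where they are 4 of the 54534 genes and transgenes listed. The genes were chosen by name and not by their values, but with earlier results of these data known. The cells came from *Gdf5-Cre;Tom;Pdgfrα-H2BGFP* mice aged 11 to 12 weeks. In these mice a *Gdf5* regulatory sequence, active in the embryonic joint interzone, drives Cre and so marks its descendants with tdTomato (Tom), while the *Pdgfrα* promoter drives a nuclear green fluorescent protein (GFP). All 9 libraries carry all of these alleles, and the sorted gates differ only in fluorescence: Tom+ cells are the *Gdf5*-lineage cells, and Tom-GFP+ cells are other *Pdgfrα*-expressing cells. There were 2 Tom+ and 1 Tom-GFP+ libraries from uninjured (steady-state) joints, and 4 Tom+ and 2 Tom-GFP+ libraries from joints taken 6 days after surgery on the right knee, in which the joint was opened and the cartilage of the trochlear groove scratched. Each group has as many mice as libraries, and the Tom-GFP+ cells came from mice matched to those of the Tom+ cells, but which libraries share a mouse is not given in the sources used here.

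Collagen fibrils of the joint are built from fibril-forming collagens such as types I, II and III. Fibril-associated collagens do not form fibrils alone. They lie on the fibril surface, where short collagenous stretches are broken by flexible interruptions and large non-collagenous domains reach outwards to neighbouring fibrils and matrix proteins. Type XII is known from tendon, ligament and bone surfaces under load, type XIV from skin and tendon, type XVI from fine fibril networks of skin and cartilage, and type XXII from tissue junctions, among them the myotendinous junction and the cartilage surface facing the joint space.

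The feature that unites these collagens is the Gly-X-Y repeat, in which glycine opens every triplet of residues. Reading frames from GENCODE vM21 on GRCm38 were searched for runs of at least 5 such repeats. *Col12a1* (ENSMUSG00000032332, chr9:79598991-79718831, minus strand) has 3065 codons, of which 8.12% lie in such runs. In *Col14a1* (ENSMUSG00000022371, chr15:55307750-55520803, plus strand) it is 13.9% of 1797 codons. *Col16a1* (ENSMUSG00000040690, chr4:130047840-130099283, plus strand) has 62.1% of 1580 codons in runs, and *Col22a1* (ENSMUSG00000079022, chr15:71795795-72034227, minus strand) has 63.2% of 1613 codons. The members thus fall into a pair with a small collagenous share and a pair in which it makes up most of the frame, and the longest run spans 32 repeats in *Col12a1* and in *Col14a1*, 52 in *Col16a1* and 113 in *Col22a1*. The first 15 repeats of the longest run are shown for each gene from 5′ to 3′ on the coding strand, with the glycine codon that opens each triplet in capitals, so that the shared repeat and the different X and Y codons can be seen side by side.
Col12a1: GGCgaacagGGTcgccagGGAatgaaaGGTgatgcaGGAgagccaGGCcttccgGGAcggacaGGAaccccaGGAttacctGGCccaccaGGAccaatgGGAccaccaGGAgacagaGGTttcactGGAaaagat
Col14a1: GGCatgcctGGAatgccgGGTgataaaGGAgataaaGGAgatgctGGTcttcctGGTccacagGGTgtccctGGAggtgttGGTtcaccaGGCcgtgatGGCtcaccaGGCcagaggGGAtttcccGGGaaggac
Col16a1: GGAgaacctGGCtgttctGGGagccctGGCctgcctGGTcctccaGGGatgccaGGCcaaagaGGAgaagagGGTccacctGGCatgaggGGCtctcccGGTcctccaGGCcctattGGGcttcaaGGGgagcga
Col22a1: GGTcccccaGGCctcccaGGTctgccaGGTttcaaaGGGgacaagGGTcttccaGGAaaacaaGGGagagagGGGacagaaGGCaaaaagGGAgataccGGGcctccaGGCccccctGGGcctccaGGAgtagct

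Levels are counts of unique molecular identifiers (UMIs), which tag captured RNA molecules, summed over the cells of a gate in a library and scaled to 1000000 UMIs of that sum (CPM). Of 5161 barcodes, 4788 passed the cell filters, with 277 to 826 cells and a median of 8050.5 to 18567 UMIs per cell in a library. The injured libraries were deeper (medians from 12223) than the steady-state ones (up to 8647), and Tom+ injured replicate 1 was the deepest. No library pair shared more than 0.472% of the smaller library's barcodes. A gate is a class of cells that hold UMIs of at least 3 of a list of marker genes, none of them a collagen, while the sublining gate takes cells with *Thy1* or *Cd34* that pass no other gate. There were 1498 cells in the sublining gate, 380 *Dpp4*+ universal fibroblasts, 798 lining fibroblasts (*Prg4* with *Clic5* or *Tspan15*), 215 *Prg4*+ cells without *Clic5*, *Tspan15* or *Thy1* (the Prg4+ Clic5- gate), 955 *Lrrc15*+ fibroblasts of which all but 2 were from injured joints, 219 tenocytes, 107 chondrocytes, 112 osteoblasts and 93 mural cells, with 283 stromal cells in no gate. The lining gate had 4 of its own markers among its 10 leading genes beside *F13a1*, a marker listed for the Prg4+ Clic5- gate, and neither that gate nor the sublining gate had any of its own, so both names stand for the rule. *Prg4* alone did not separate the gates, with UMIs in 56.5% of sublining and 28% of mural cells. The paper reports that its osteoblast-lineage cluster had an osteochondral phenotype after injury. In the steady state it describes Tom+ chondrocyte-lineage cells as superficial zone chondrocytes. It describes the Tom- ones as mature or hypertrophic and likely from growth plate. The osteoblast and chondrocyte gates were not split along these lines, so their cells can differ between states and lineages. The gene lists of the 3 steady-state libraries and of Tom+ injured replicate 1 are in an older file format than those of the other 5, which cannot be told apart from state in the other libraries. RNA released from broken cells adds UMIs to every droplet, and immune cells served as the background: after each cell of the injured libraries was thinned to 5000 UMIs, *Col12a1* was found in 0% of them, *Col14a1* in 6.76%, *Col16a1* in 1.35% and *Col22a1* in 2.70% (unthinned 2.94%, 11.8%, 0.980% and 2.94% of 102 cells with a median of 8390.5 UMIs).

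The 4 genes had different carriers. *Col22a1* was a gene of the lining. *Col14a1* was a gene of sublining, universal, *Lrrc15*+ and tenocyte cells, and also of the Prg4+ Clic5- gate, above all in the steady state. *Col12a1* and *Col16a1* were highest in tenocytes, chondrocytes and osteoblasts and intermediate in *Lrrc15*+ cells. The lining gate held 97.5% to 100% of the stromal UMIs of *Col22a1* in the steady-state libraries and 87.7% to 97.9% in the injured libraries, although it made up only 1.82% to 13.5% and 7.70% to 44.5% of all stromal UMIs. The sublining gate held 52.5% to 67.5% of *Col14a1* UMIs in the steady state and 18.5% to 54.6% after injury, when the *Lrrc15*+ gate held a further 27% to 61.0%. Of *Col12a1* UMIs, the *Lrrc15*+ gate held 32.9% to 77.0% in the injured libraries.

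**Figure D1:**
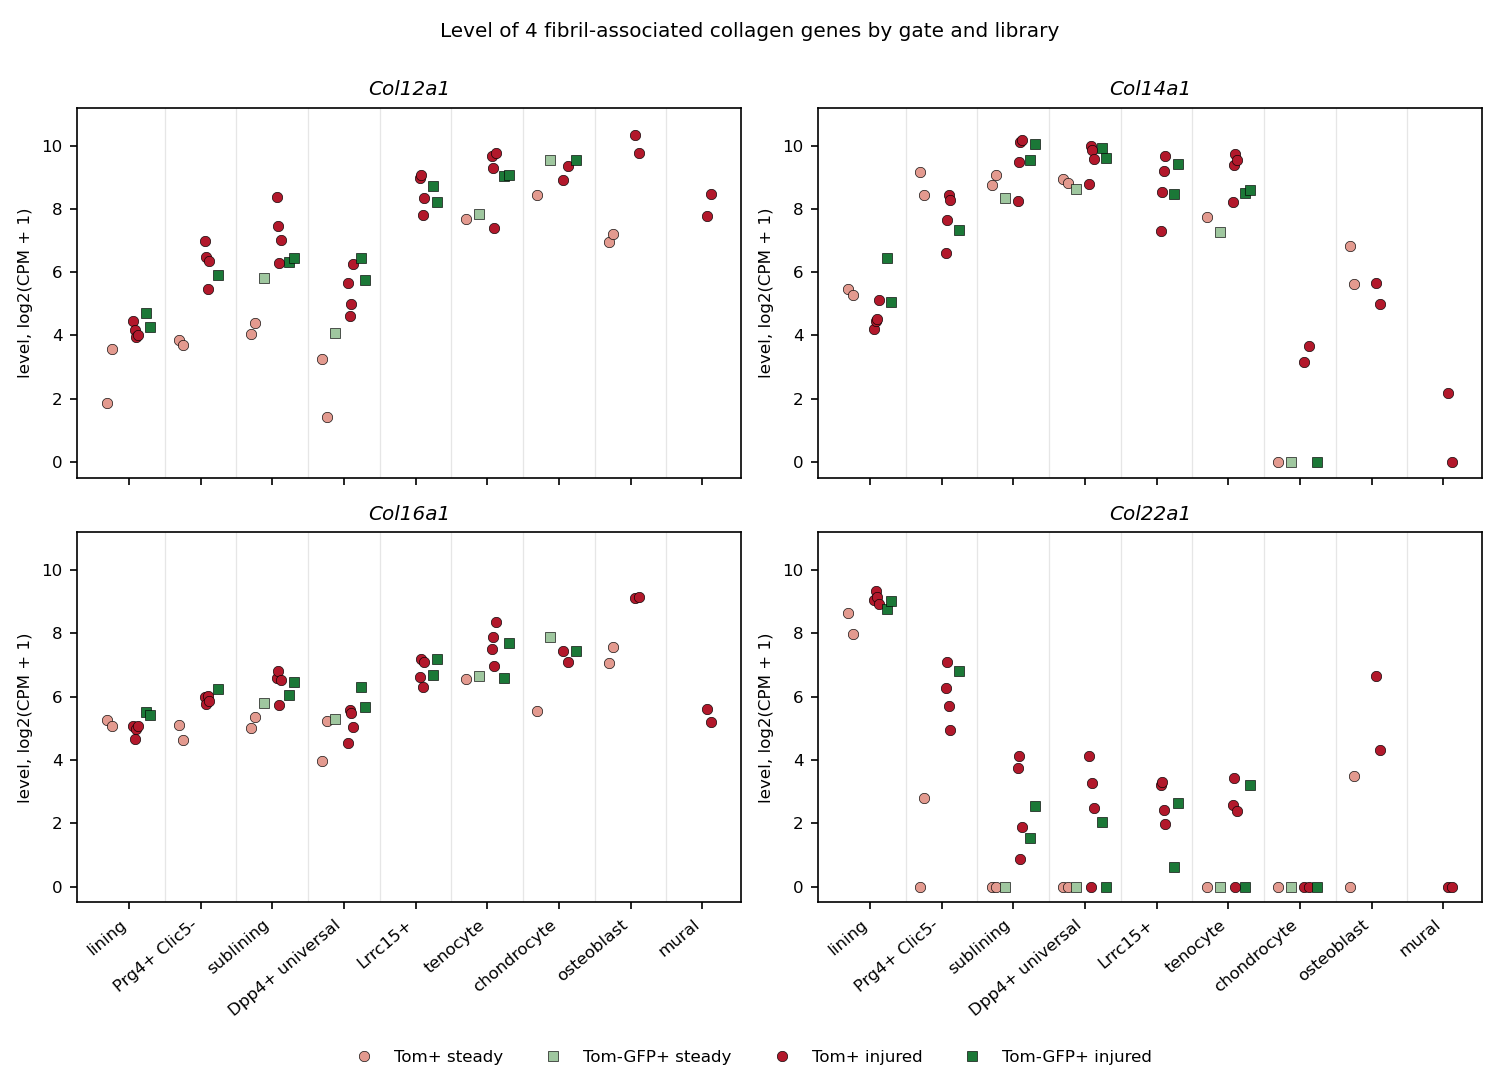
Level of each gene, as log2(CPM + 1), in every library and gate with at least 10 cells; circles are Tom+ and squares Tom-GFP+ libraries, pale for the steady state and dark for the injured state. The Col22a1 points of the lining, from 250 to 648 CPM, lie above those of all other gates, a pattern not counted over all genes. The Col14a1 points are lowest in chondrocytes and mural cells.

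**Figure D2:**
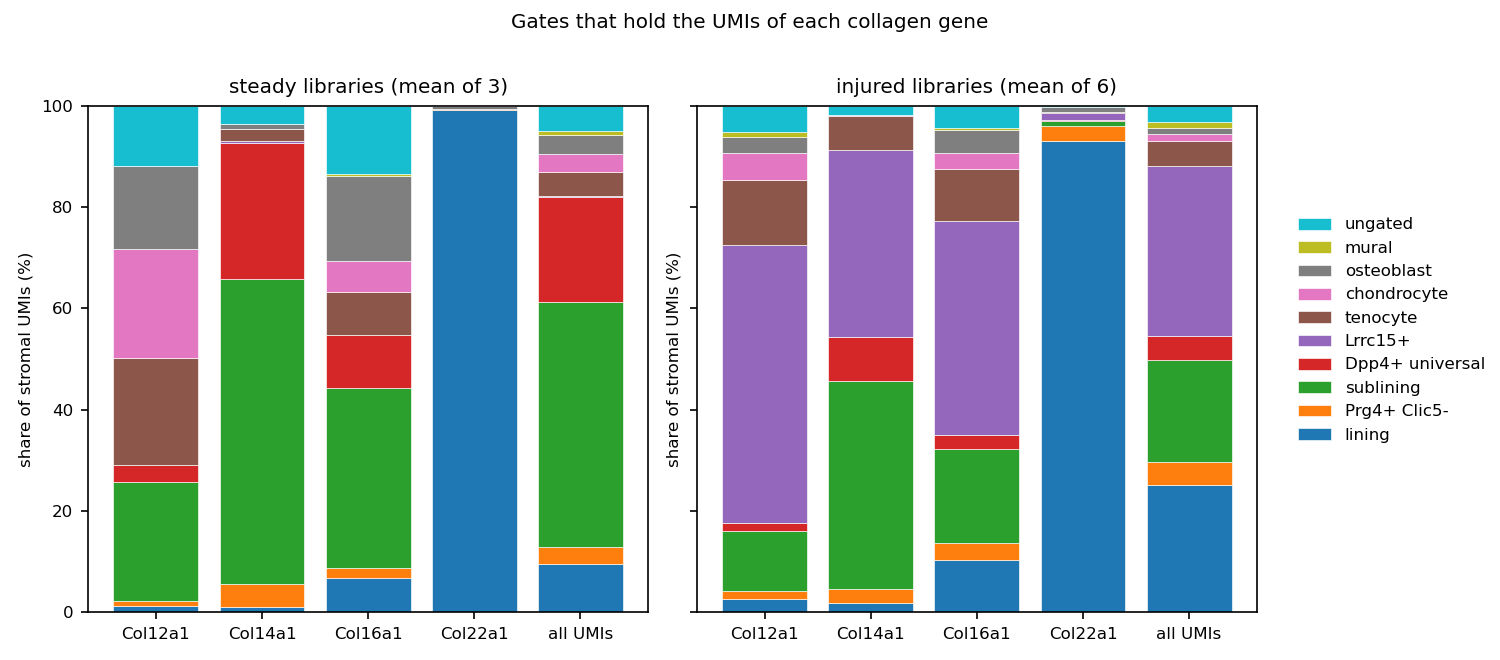
Mean share (percent) of the stromal UMIs of each gene that lie in each gate, for the 3 steady-state and the 6 injured libraries, beside the share of all UMIs. Almost the whole Col22a1 bar is lining in both states, and the Lrrc15+ gate appears in the injured bars of the other 3 genes.

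For *Col22a1*, the lining level was 399 and 250 CPM in the Tom+ steady-state libraries, 536, 648, 562 and 490 CPM in the Tom+ injured libraries and 434 and 523 CPM in the Tom-GFP+ injured libraries. The Tom-GFP+ steady-state library had only 3 lining cells, with 12 UMIs. The sublining gate had no UMI in any of the 3 steady-state libraries. Its 6 injured libraries ranged from 0.821 to 16.3 CPM with a median of 3.78. The gates thus did not overlap in any library with at least 10 lining cells, a pattern not counted over all genes. Within libraries the gene was higher in the lining by 6.62 on the log2 scale (SE 0.31, adjusted p = 1.49e-21, from an edgeR quasi-likelihood fit with Benjamini-Hochberg correction across all genes tested). In this contrast all 4 collagens were called, against 40.5% of the 9601 genes tested. At 5000 UMIs per cell, 50.7% of steady-state and 81.8% of injured lining cells held a *Col22a1* UMI (unthinned 63.6% and 94.0%, at medians of 13234 and 17524 UMIs, with 4 and 8 cells left out as too shallow).

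*Col22a1* was also higher in cells with more of the lining markers, although no collagen was among those markers. In steady-state lining cells it was at 0 CPM in the 17 cells with 3 of the 6 markers, 278 CPM in the 10 cells with 4, 355 CPM in the 14 with 5 and 369 CPM in the 36 with all 6. In injured lining cells the levels were 124, 286, 525 and 661 CPM in 51, 67, 188 and 415 cells. The cells with more markers were also deeper, with medians of 10662 and 14626 UMIs for 3 and 6 markers in the steady state and 14305 and 18353 after injury, and the part of depth was not tested.

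The other gates had little *Col22a1* apart from the Prg4+ Clic5- and osteoblast gates. In the Prg4+ Clic5- gate it was at 0 and 5.99 CPM in the Tom+ steady-state libraries, at 76.2, 137, 51.5 and 30.2 CPM in the Tom+ injured libraries and at 113 CPM in Tom-GFP+ injured replicate 1. The steady-state and injured values did not overlap, but no test between states was made in this gate. How many of all genes separate in this way was not counted. Against the sublining gate *Col22a1* had a log2 fold change of 3.49 (SE 0.40, adjusted p = 4.84e-08), and 3 of the 4 collagens were called there against 6.26% of genes. With the steady-state libraries alone, none of the 4 was called in this gate. In osteoblasts, cells that deposit bone matrix, Tom+ steady-state levels were 0 and 10.3 CPM, and Tom+ injured replicates 1 and 2 had 99.7 and 19.1 CPM. The fitted difference of 2.62 (SE 0.69, adjusted p = 0.00519) rested on replicate 1 and fell to 1.47 (adjusted p = 0.433) without it and to 1.44 (adjusted p = 0.461) with sums of at least 20 cells, and was 3.6 without replicate 2. At 5000 UMIs, 24.3% of injured Prg4+ Clic5- cells and 21.7% of injured osteoblasts had a UMI, against 1.63% of sublining, 2.53% of *Lrrc15*+ and 3.16% of tenocyte cells, which lie near the 2.70% of immune cells, so no level above the background was shown in those 3 gates. Chondrocytes had 0 UMIs in 107 cells, which allows up to 2.80% of cells with a UMI, and mural cells 0 in 93, which allows up to 3.23%. These limits are on captured UMIs and not on cells that express the gene, and such limits and the intervals given here cover counting error only.

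*Col12a1* was highest in tendon, cartilage and bone cells, and low in the lining and the universal gate. The lining of the Tom+ steady-state libraries had 2.68 and 11.0 CPM, and that of the 6 injured libraries 14.5 to 25.0 CPM (median 17.6). In the sublining gate it was at 15.3 and 19.8 CPM in Tom+ and 55.6 CPM in Tom-GFP+ steady-state libraries, and at 77.1 to 328 CPM (median 108) in the injured ones. Within libraries the lining was lower by 2.87 on the log2 scale (SE 0.26, adjusted p = 2.85e-13), or by 1.60 in the steady-state libraries alone, which missed the threshold (adjusted p = 0.0580).

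In chondrocytes *Col12a1* was at 349 and 743 CPM in the steady-state libraries with at least 10 such cells (Tom+ replicate 2 and Tom-GFP+), and at 482, 654 and 748 CPM in the injured ones (Tom+ replicates 3 and 4 and Tom-GFP+ replicate 1). Against the sublining gate this was higher by 3.05 (SE 0.25, adjusted p = 2.33e-14), with 3 collagens called against 30.8% of genes. The contrast pools Tom+ and Tom-GFP+ chondrocytes, which the paper describes in the steady state as superficial zone and likely growth plate cells. In osteoblasts it was at 124 and 148 CPM in the steady state and at 1281 and 864 CPM after injury, all Tom+, a difference from the sublining gate of 2.53 (SE 0.27, adjusted p = 1.80e-10), with all 4 collagens called against 15.1% of genes. The steady-state and injured osteoblast values did not overlap, but with 2 libraries each no test between states was made in that gate. How many of all genes separate there was not counted. Given the osteochondral phenotype that the paper reports after injury, the states may hold unlike cells.

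Tenocytes, the fibroblasts of tendon, held *Col12a1* at 203 and 229 CPM in the steady state and at 169 to 877 CPM (median 584) in the 6 injured libraries, where Tom+ replicate 3 was the lowest and alone fell below the steady-state values. The difference from the sublining gate was 2.20 (SE 0.21, adjusted p = 1.28e-10), and 2 collagens were called there against 9.66% of genes. *Lrrc15*+ fibroblasts, which were nearly absent from uninjured joints, held 505, 535, 221 and 321 CPM in Tom+ and 420 and 299 CPM in Tom-GFP+ injured libraries, and these values of the lineages overlapped. Against the sublining gate the *Lrrc15*+ level was higher by 1.54 (SE 0.22, adjusted p = 7.20e-07), with 2 collagens called against 15.5% of genes. Mural cells of the vessel wall held 218 and 351 CPM in Tom+ injured replicates 1 and 2 and did not pass the test against the sublining gate (0.51, SE 0.35, adjusted p = 0.368).

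Universal fibroblasts, marked by *Dpp4*, were below the sublining gate in *Col12a1*. They held 8.46, 1.65 and 15.8 CPM in the steady-state libraries and 23.7 to 85.9 CPM (median 51.5) after injury, a difference of -1.28 (SE 0.26, adjusted p = 3.60e-04), with 2 collagens called against 8.86% of genes. In the steady-state libraries alone it was -1.73 (adjusted p = 0.0134), and the call was lost with gates of at least 2 markers (-0.96, adjusted p = 0.0915). The Prg4+ Clic5- gate was lower by 0.89 (SE 0.27, adjusted p = 0.0358), a call that was lost without any of Tom+ injured replicates 1 to 4 (adjusted p 0.0734 to 0.140), with gates of at least 4 markers (adjusted p = 0.0895) and in the steady-state libraries alone. With gates of at least 2 markers the difference was -0.056 (adjusted p = 0.974). Over the injured libraries the order of *Col12a1* levels was lining, universal, Prg4+ Clic5-, sublining, mural, *Lrrc15*+, tenocytes, chondrocytes and osteoblasts. The ranges of each pair of neighbours in this order overlapped, lining and universal at 25.0 and 23.7 CPM, except those of chondrocytes (up to 748 CPM) and osteoblasts (from 864 CPM). No injured library had enough cells of both these gates. Chondrocytes were read in Tom+ replicates 3 and 4 and Tom-GFP+ replicate 1, and osteoblasts in Tom+ replicates 1 and 2. The fit within libraries gave the other order against the sublining gate, 3.05 for chondrocytes and 2.53 for osteoblasts.

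**Figure D3:**
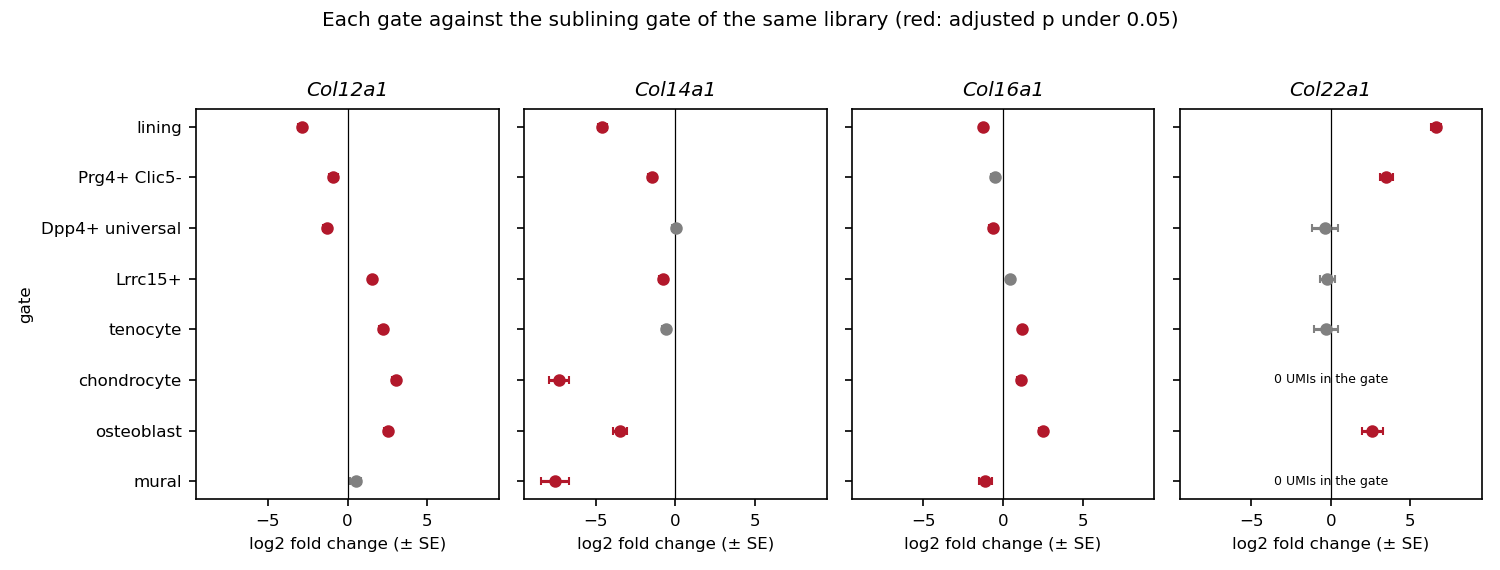
Fitted log2 fold change (point) with its standard error (bar) of each gate against the sublining gate of the same library, for each gene; red points passed an adjusted p of 0.05. Col22a1 is highest in the lining and Prg4+ Clic5- gates, Col14a1 is lowest in chondrocyte, mural and lining cells, and no fold is drawn for Col22a1 where a gate had 0 UMIs.

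*Col16a1* followed *Col12a1* across gates but over a smaller range. In the lining it was at 37.5 and 33 CPM in the Tom+ steady-state libraries and at 24.3 to 44.6 CPM (median 32.8) after injury, so the states overlapped. The sublining gate held 31.4, 39.7 and 55.0 CPM in the steady state and 52.5 to 110 CPM (median 89.0) after injury. Within libraries the lining was lower by 1.27 (SE 0.20, adjusted p = 3.90e-07), and in the steady-state libraries alone no difference was detected (-0.18, adjusted p = 0.822). 

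Osteoblasts had the highest *Col16a1* levels, at 134 and 190 CPM in the steady state and 553 and 562 CPM in injured Tom+ replicates 1 and 2, above the sublining gate by 2.51 (SE 0.23, adjusted p = 1.71e-12). Tenocytes held 93.8 and 99.5 CPM in the steady state and 94.9 to 331 CPM (median 195) after injury (1.20, SE 0.19, adjusted p = 5.35e-06), a call that was lost with at least 4 markers per gate (0.71, adjusted p = 0.107). Chondrocytes held 45.8 and 236 CPM in the steady state and 174, 136 and 173 CPM after injury (1.12, SE 0.27, adjusted p = 6.82e-04), and this call was lost with a stricter cell filter (0.67, adjusted p = 0.112). The *Lrrc15*+ gate, at 78.4 to 146 CPM (median 120), missed the threshold (0.46, SE 0.18, adjusted p = 0.0775) and passed it with gates of at least 2 markers (0.66, adjusted p = 0.0104), a strict cell filter (0.0499), no filter on low counts (0.0121) or the highest 5% of UMIs left out (0.0458). The universal gate was lower by 0.66 (adjusted p = 0.0397) and the mural gate by 1.10 (adjusted p = 0.0471, with 2 collagens called against 18.4% of genes), and both calls were fragile, being lost without 7 and 5 of the single libraries in turn (adjusted p up to 0.126 and 0.319). Across the 58 sums of at least 10 cells, log2(CPM + 1) of *Col12a1* and *Col16a1* had a Pearson r of 0.83, against -0.30 to -0.06 for the other 5 pairs, where sums from the same library share its depth and preparation.

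*Col14a1* went with the connective-tissue fibroblasts and was nearly absent from cartilage and vessel wall. It was at 435, 538 and 324 CPM in the sublining gate and 491, 455 and 396 CPM in the universal gate of the steady-state libraries (Tom+ replicates 1 and 2, then Tom-GFP+). After injury it ranged from 301 to 1156 CPM (median 897) and from 442 to 1017 CPM (median 857), and these gates were not told apart (0.03, SE 0.23, adjusted p = 0.979). In the lining it was at 42.9 and 37.7 CPM in the steady state and 17.6 to 85.7 CPM (median 26.9) after injury, lower than in the sublining gate by 4.59 (SE 0.29, adjusted p = 1.22e-18). The thinned share of injured lining cells with a *Col14a1* UMI, 6.45% (unthinned 15%), was about that of immune cells, so no level above the background was shown over these libraries. By library it ran from 2.87% to 17.2%, and in the Tom-GFP+ ones it was 11.4%, where 0% of the immune cells had a UMI but 9 of the 20 were too shallow to count.

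The Prg4+ Clic5- gate was unlike the lining in this gene. It held *Col14a1* at 567 and 347 CPM in the Tom+ steady-state libraries, within or above the range of the sublining gate, and at 97, 200, 344 and 312 CPM in Tom+ and 161 CPM in Tom-GFP+ injured libraries, below the sublining gate of the same library in each case. The difference over both states was -1.48 (SE 0.27, adjusted p = 2.06e-04), and in the steady-state libraries alone it was -0.05 (adjusted p = 1.00). *Lrrc15*+ fibroblasts held 157, 366, 582 and 816 CPM in Tom+ and 354 and 677 CPM in Tom-GFP+ libraries, lower than the sublining gate by 0.76 (SE 0.26, adjusted p = 0.0347). This call was lost without Tom+ injured replicate 1, 2 or 3 or Tom-GFP+ injured replicate 1 (adjusted p 0.0725 to 0.110), by DESeq2 (0.0647) and with the highest 5% of UMIs left out (-0.59, adjusted p = 0.144).

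Tenocytes held *Col14a1* at 214 and 154 CPM in the steady state and 296 to 855 CPM (median 531) after injury, and the difference from the sublining gate missed the threshold (-0.57, SE 0.24, adjusted p = 0.134). It was called lower in the steady-state libraries alone (-1.10, adjusted p = 0.0356), with gates of at least 4 markers (-0.77, adjusted p = 0.043) and without a filter on low counts (-0.67, adjusted p = 2.31e-05). Osteoblasts, at 113, 48.2, 49.8 and 30.6 CPM in the Tom+ libraries, were lower by 3.48 (SE 0.43, adjusted p = 1.42e-08). Chondrocytes had 4 UMIs in 90 cells of 5 libraries (4.43 CPM), against 751 CPM in the sublining gate of those libraries, a sublining to chondrocyte ratio of 169 with a 95% counting interval of 66.1 to 622. Mural cells had 2 UMIs in 65 cells of 2 libraries against 545 CPM in the sublining gate, a ratio of 216 (59.8 to 1788). Both contrasts passed the test (adjusted p = 2.53e-14 and 9.23e-10), and their fitted folds depend on those few UMIs.

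The comparison of injured with steady-state joints asks which of these genes changed in the sublining fibroblasts, here the sublining and universal gates together. *Col12a1* rose in Tom+ cells. It was at 13.6 and 15.7 CPM in the steady-state libraries and at 296, 163, 69.8 and 119 CPM in injured replicates 1 to 4, so every injured library lay above both steady-state ones (14.7 ± 1.47 against 162 ± 97.1 CPM, SD). The log2 fold change was 3.43 (SE 0.52, adjusted p = 0.00304), and it held when any library was left out. With *Lrrc15*+ cells added to the sum it was 4.35, and over all stromal cells 2.51.

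*Col16a1* rose in the same cells from 27.3 and 38.9 CPM to 87.2, 105, 51.1 and 79.8 CPM. As for *Col12a1*, the groups did not overlap (33.1 ± 8.23 against 80.9 ± 22.5 CPM), and how many of all genes separate in this way was not counted. The log2 fold change of *Col16a1* was 1.27 (SE 0.28, adjusted p = 0.0177). It missed the threshold without Tom+ steady-state replicate 1 (adjusted p = 0.168) or replicate 2 (0.0653) and over all stromal cells (0.88, adjusted p = 0.063). In this comparison 10.3% of 11651 genes were called, 1204 in all, and the count was 300 and 401 without Tom+ steady-state replicate 1 or 2 and 758 without Tom+ injured replicate 2.

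*Col14a1* did not pass the test, and its injured libraries did not move together. It was at 449 and 519 CPM in the Tom+ steady state (484 ± 49.9) and at 318, 744, 1070 and 1079 CPM in injured replicates 1 to 4 (803 ± 359), so replicate 1 lay below both steady-state libraries and the other 3 above them. The log2 fold change was 0.73 (SE 0.41, adjusted p = 0.3), and without replicate 1 it was 1.00 (adjusted p = 0.0123). Without a filter on low counts it was called at 0.74 (adjusted p = 0.0319). Replicate 1 is the library that shares its gene list format with the steady-state ones, is the deepest, and has the largest share of *Lrrc15*+ cells (47.0% of stromal cells, where the lowest injured library had 17.7%). It also had the lowest *Col14a1* level of the Tom+ injured libraries in the Prg4+ Clic5-, *Lrrc15*+ and tenocyte gates. With the format as a block, the fold change of *Col14a1* was -0.65 (adjusted p = 0.232), that of *Col12a1* 4.27 (adjusted p = 1.41e-04) and that of *Col16a1* 1.34 (adjusted p = 0.0433). The format holds only 1 injured library beside the steady-state ones, and its part was not tested further.

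*Col22a1* had 0 UMIs in 893 steady-state sublining fibroblasts, which allows up to 0.336% of cells with a captured UMI, and was at 12.9, 15, 2.07 and 3.05 CPM in the Tom+ injured libraries. It was called (adjusted p = 0.0259), and with the steady-state group taken at 3 UMIs over its libraries it was at least 12.7-fold higher. The call was lost without either Tom+ steady-state library or Tom+ injured replicate 2 (adjusted p 0.0607 to 0.152), and the thinned share of Tom+ injured cells with a UMI was 2.34%, from 0.877% to 4.28% by library. Immune cells, with 2.70% over all injured libraries and at most 3.13% in the 2 libraries that gave a value, were too few to set a background in each library, and the part of free RNA was not tested.

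In Tom-GFP+ sublining fibroblasts none of the 4 genes passed the test, in a comparison with 1 steady-state library whose spread is taken from the other groups and in which 2.36% of genes were called. These were 275 genes, and the count was 22 without Tom-GFP+ injured replicate 1 and 0 without replicate 2. *Col12a1* was at 40 CPM in that library and at 81.1 and 79.6 CPM after injury (0.98, SE 0.62, adjusted p = 0.497). *Col14a1* was at 352 and at 806 and 1001 CPM (1.34, SE 0.60, adjusted p = 0.311), and *Col16a1* at 48.3 and at 69.2 and 79.6 CPM (0.60, SE 0.38, adjusted p = 0.494). All 3 were higher in both injured libraries than in the steady-state library, and how many of all genes were so was not counted. With the gene list format as a block, *Col12a1* passed (2.27, adjusted p = 0.0485), and *Col14a1* passed without a filter on low counts (1.36, adjusted p = 0.00487). *Col22a1* was at 0 CPM in the steady-state library and at 2.28 and 3.91 CPM after injury.

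The difference in injury response between the lineages was tested directly. For *Col12a1* it was 2.44 on the log2 scale (SE 0.76), larger in Tom+ cells, with an unadjusted p of 0.00836 from the fit across all genes and an adjusted p of 1.00. For *Col14a1* and *Col16a1* it was -0.61 and 0.67 (adjusted p = 1.00 each). By edgeR 0% of the genes were called in this contrast, while 270 had an unadjusted p under 0.05, and DESeq2 also called 0. Between lineages within a state, none of the 4 genes was called either. These fits do not model the mice that the lineages share, and with the replicate number as a block the difference of *Col12a1* between injured lineages was 1.48 (adjusted p = 0.133). In injured cells, where 0.00858% of genes were called, *Col12a1* differed by 1.04 (SE 0.43, adjusted p = 0.813) and *Col14a1* by -0.12 (adjusted p = 0.999). In the steady state, where 0.0429% were called, *Col12a1* was lower in Tom+ cells by 1.41 (SE 0.63, adjusted p = 0.929), at 13.6 and 15.7 against 40 CPM.

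**Figure D4:**
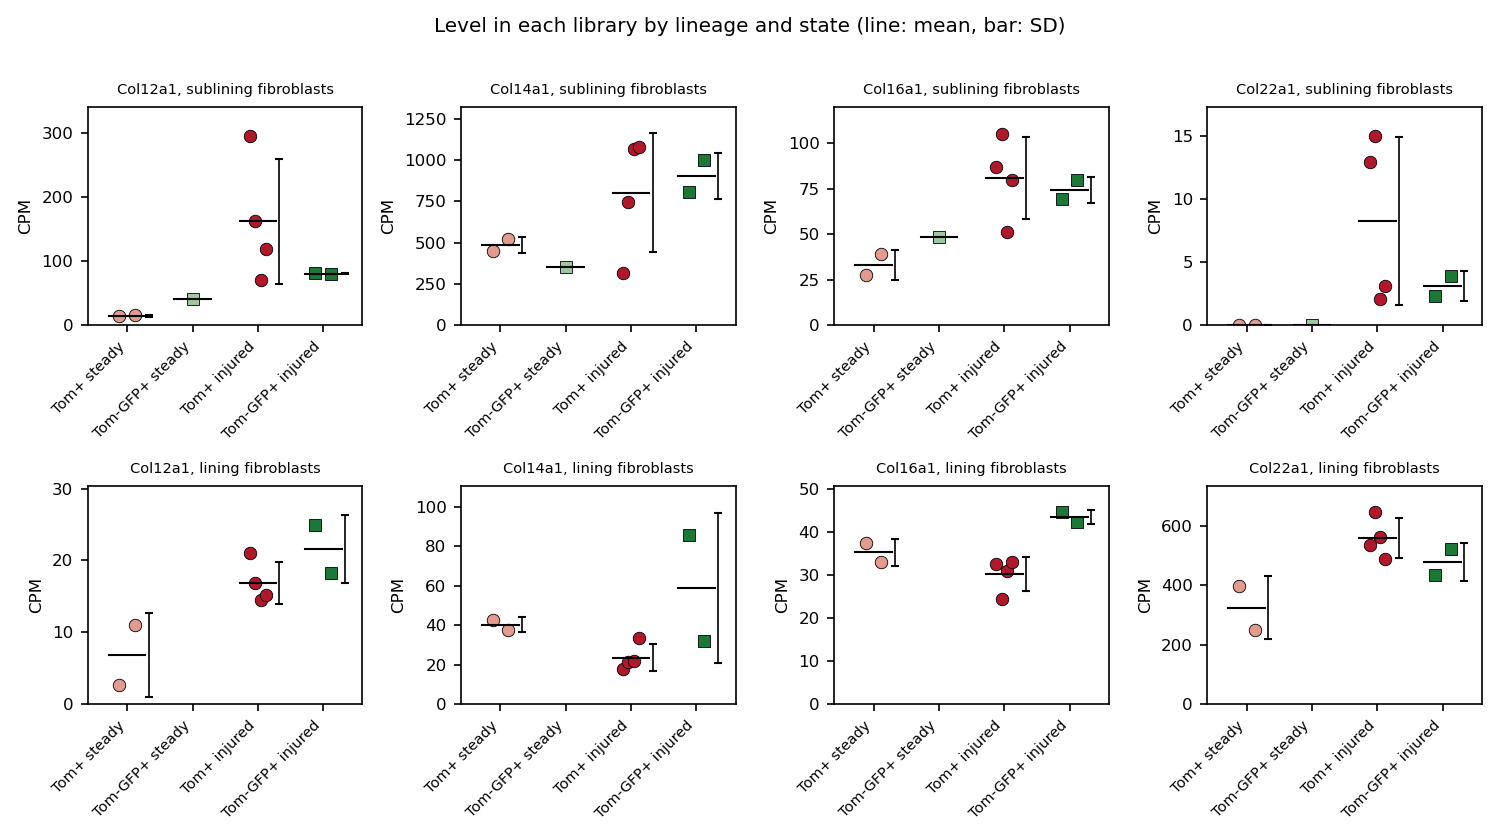
CPM of each gene in each library, by lineage and state, in sublining fibroblasts (sublining and universal gates, top) and lining fibroblasts (bottom); the line is the mean and the bar the SD, and gates with under 10 cells are not drawn. Col12a1 and Col16a1 do not overlap between Tom+ steady-state and injured sublining fibroblasts, while Col14a1 has an injured library below both steady-state ones. How many of all genes separate in this way was not counted.

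In Tom+ lining fibroblasts none of the 4 genes passed the test of injury, against 5.16% of 9813 genes. Those 506 genes became 83 and 78 without Tom+ steady-state replicate 1 or 2, and 225, 140 and 208 without Tom+ injured replicate 2, 3 or 4. *Col22a1* came nearest, at 325 ± 106 CPM in 2 steady-state and 559 ± 66.6 CPM in 4 injured libraries, with every injured library above both steady-state ones, a pattern not counted over all genes. Its log2 fold change of 0.82 (SE 0.22) had an adjusted p of 0.0551 by edgeR, against 0.0188 by DESeq2, 0.039 with gates of at least 2 markers and 4.61e-04 without a filter on low counts. *Col12a1* was also higher in all 4 injured libraries, at 21.0, 16.9, 14.5 and 15.1 against 2.68 and 11.0 CPM (1.13, SE 0.46, adjusted p = 0.176), on 1 and 7 UMIs in the steady-state libraries. Leaving out a library moved that fold change between 0.66 and 2.69, and with gates of at least 2 markers it was called (2.55, adjusted p = 0.021). *Col14a1* was at 17.6, 21.2, 21.9 and 33.4 against 42.9 and 37.7 CPM (-0.75, SE 0.41, adjusted p = 0.330) and *Col16a1* at 30.2 ± 3.99 against 35.3 ± 3.19 CPM (-0.19, SE 0.23, adjusted p = 0.699). The summed Schwann cell markers were at 143 to 204 CPM in the Tom+ steady-state lining and 34.2 to 92.5 CPM in the injured one, from 2 and 4 of 7 listed genes, and the adipocyte markers reached 502 CPM in an injured library with 6 of 6 genes found. Their part in these values was not tested.

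The fibril-forming collagens, the partners of these genes in the fibril, moved with injury too. In Tom+ sublining fibroblasts 7 of 10 tested rose and none fell, where 3.84% of all genes rose and 6.50% fell, with a median log2 fold change of 1.89 where the median of all genes was -0.0049. That median covers all 10, including the 3 that did not pass. Among the 7 that passed, the 6 with the largest changes were *Col27a1* (2.18), *Col1a1* (2.14), *Col3a1* (1.63), *Col1a2* (1.45), *Col5a2* (1.43) and *Col5a1* (1.39). They include both chains of type I and chains of types III and V. Of 14 proteins that bind or decorate fibrils, 4 rose and 2 fell: *Tnc* (tenascin C, 3.59), *Postn* (periostin, 2.33), *Bgn* (biglycan, 1.34) and *Lum* (lumican, 1.05) rose, and *Ogn* (osteoglycin, -1.54) and *Dcn* (decorin, -1.03) fell. *Tnc* is a marker of the *Lrrc15*+ gate, whose cells are left out of these sums, so gating bears on its value. Of 8 collagen receptors, *Cd44* rose (1.43), and *Itga2* (-1.71), *Itga11* (-0.88) and *Ddr2* (-0.85) fell. Summed markers of other cell types in these sums were 1.05 to 55.3 CPM for skeletal muscle, immune, endothelial and Schwann lists in every group, and up to 14.9 CPM for adipocytes in the steady-state libraries and 136 CPM in the injured ones, and their part in these values was not tested.

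In Tom-GFP+ sublining fibroblasts *Col1a1* (2.02) and *Col1a2* (1.29) were the 2 of 10 fibril-forming collagens that rose, where 0.378% of all genes rose. In Tom+ lining fibroblasts *Col3a1* (1.62), *Col5a3* (1.34) and *Col1a1* (0.84) rose, 3 of 9, where 1.68% of all genes rose and 3.47% fell. *Thbs4* (-4.07), *Comp* (-3.61) and *Ogn* (-3.50) fell there and *Postn* (1.73) and *Tnc* (1.39) rose, of 14 partners.

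Across gates the same lists show the matrix in which each of the 4 genes was found. In the lining, the gate of *Col22a1*, 8 of 11 fibril-forming collagens and 11 of 14 partners were lower than in the sublining gate, where 21.6% of all genes were lower and 18.8% higher, among them *Col1a2* (-2.45), *Col3a1* (-1.76), *Ogn* (-4.58), *Postn* (-4.18) and *Lum* (-3.24), and of 8 receptors 4 were higher, such as *Cd44* (0.89) and *Ddr1* (0.62), and *Itga2* (-4.19) and *Itga11* (-2.71) were lower. In chondrocytes *Col14a1* was nearly absent, and 13.9% of all genes were higher and 16.9% lower. There *Col2a1* (11.78), *Col11a1* (7.68), *Col11a2* (12.24) and *Col27a1* (4.92) were higher, while 6 of 11 fibril-forming collagens were lower. *Col9a1* (12.14), *Col9a2* (10.99) and *Col9a3* (11.66), the chains of the cartilage fibril-associated collagen IX, were also higher. They were the 3 tested of 6 other listed fibril-associated collagens. In the fits of sublining or lining fibroblasts alone, 0 of the 6 had enough counts to be tested. These 3 thus entered through gates where they are high, and their direction is no test. In osteoblasts, where 6.66% of all genes were higher, 8 of 11 fibril-forming collagens were higher, with *Col24a1* (3.98) and *Col1a1* (2.21) among them. In tenocytes, where 3.74% were higher, 7 of 14 partners were higher and 2 lower. *Fmod* and *Thbs4* among the higher ones are markers of that gate. The others included *Tnc* (1.84), a marker of the *Lrrc15*+ gate, *Comp* (1.73) and *Prelp* (1.34). In *Lrrc15*+ cells, where 6.18% were higher and 9.28% lower, *Col5a3* (0.82), *Col27a1* (0.70), *Col5a1* (0.56) and *Col5a2* (0.52) were higher. Of 14 partners 1 was higher there and 3 were lower, namely *Tnxb* (-1.49), *Dcn* (-0.79) and *Dpt* (-0.72).

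The genes most like each member over the 58 sums differed between the members. They were ranked by Pearson r of log2(CPM + 1) among 7902 genes of at least 10 CPM that are neither gate markers nor members. Between *Col12a1* and *Col16a1* themselves r was 0.83, above that of every gene listed for *Col12a1*. The listed genes were *Fscn1* (0.82), *Tspan6* (0.81), *Smim3* (0.78), *Emilin1* (0.78) and *Fabp5* (0.77) for *Col12a1*. For *Col16a1* they were *Emilin1* (0.84), *Megf6* (0.81), *Maged1* (0.79), *Mmp13* (0.79) and *Scarf2* (0.78). *Emilin1*, which encodes an elastic fibre protein, thus stood in both lists. For *Col14a1* they were *Fndc1* (0.92), *Rnase4* (0.89), *Mmp2* (0.88), *Cfb* (0.87) and *Igf1* (0.87). For *Col22a1* they were *Gchfr* (0.88), *Tmem196* (0.81), *Megf10* (0.79), *Rab37* (0.77) and *Ptger3* (0.77).

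At 5000 UMIs per cell, 3 of the members were found together most often in injured tenocytes and *Lrrc15*+ cells. Of injured tenocytes, 39.9% had UMIs of 2 of the 4 genes and 32.9% of 3, and of *Lrrc15*+ cells 42.1% and 18.9%. The share with 2 genes was highest in injured osteoblasts, at 56.5%. In the lining 71.0% of injured cells had UMIs of 1 gene and 15% of 2. UMIs of all 4 genes were found in 0.633% of injured tenocytes and 0.211% of *Lrrc15*+ cells, and in 0% of the cells of each other gate and state counted.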

How the data were processed

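Cells were sorted from knee digests and captured with a 10x 5′ kit, and per the labels the authors counted reads with Cell Ranger on GRCm38, version 3.0.2 in the headers of the newer files. The deposited matrices hold raw UMI counts per gene and barcode, and the deposited gene and barcode lists (27 files in all, 3 for each of 9 libraries) hold names alone. Barcodes needed at least 500 genes, 1000 UMIs and no more than 10% of UMIs from mitochondrial genes, and were assigned to gates as described. No doublet caller was run: 618 cells passed over 1 gate and took the gate with the highest mean scaled marker level, and the cells with the highest 5% of UMIs were left out as an alternative. Counts were summed over at least 10 cells per gate and library and tested with edgeR 4.0.16 in R 4.3.3 (TMM, filterByExpr, quasi-likelihood F test, Benjamini-Hochberg adjustment over all genes, threshold 0.05). SE is the log2 fold change divided by the square root of F. Injury and lineage were fitted over the 4 groups of libraries, and gates against the sublining gate with library as a block. DESeq2 1.42.0 was an alternative, with leave-one-out, cell filter, gate, scaling and block alternatives. Python 3.11.15 with numpy 2.4.6, scipy 1.17.1 and pandas 2.3.3 was used for the other steps, and scripts were tested on simulated data. The genes and lists were chosen with earlier results of these data known. Named besides the 4 genes were the list members that passed, at most 6 per list by size, and the 5 genes most like each member. Groups hold as many mice as libraries. Tom-GFP+ mice are matched to Tom+ mice, but which libraries share a mouse is not given in the sources used here. The p-values for lineages therefore do not model shared mice, and those for gates count each library as its own block. The steady-state Tom-GFP+ group has 1 library, which is taken to vary like the others.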

Additional observations from a re-analysis of the deposited data

How the results depend on the processing

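Leaving out a library gave 1 to 4 collagens called for injury in Tom+ sublining fibroblasts against 3, 1 to 2 for the *Lrrc15*+, universal and mural gates against 2, 3 to 4 for osteoblasts against 4 and 2 to 3 for the Prg4+ Clic5- gate against 3. Counts stayed at 4 for the lining, 3 for chondrocytes, 2 for tenocytes and 0 for lining injury, Tom-GFP+ injury, the lineages and the difference in response between them. The cause of the changes under other settings was not tested. For the mural gate 1 collagen was called with cells near a boundary left out, DESeq2 size factors, the DESeq2 test, gates of at least 2 markers or strict cell filters. For the universal gate 1 was called with DESeq2 size factors, without the highest 5% of UMIs, in injured or steady-state libraries alone, with strict cell filters or sums of at least 20 cells, and 0 with gates of at least 2 markers. With DESeq2's test 1 was called in the *Lrrc15*+ gate and for lining injury, and lining injury gave 2 with gates of at least 2 markers. Without a filter on low counts 1 was called for lining injury, for each lineage comparison and for the difference in response (*Col12a1*, 2.41, adjusted p = 4.05e-05) and 2 for Tom-GFP+ injury, where the format block gave 1. In steady-state libraries alone 2 were called for the lining and 0 for the Prg4+ Clic5- gate.

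Of 964 alternative values, 868 kept their direction and side of the threshold, 49 were no longer called, 19 became called and 28 changed sign, 0 of these being called in the report. The sign changes were as follows. For universal *Col14a1* they were -0.057 (no filter), -0.11 (2 markers), -0.14 (20 cells) and -0.049 to 0.11 without a library, and for universal *Col22a1* 0.028 (DESeq2), 0.062 (2 markers) and -0.71 to 0.24. Tenocyte *Col22a1* was 0.053 (DESeq2), 0.14 (2 markers) and -0.52 to 0.0058, and *Lrrc15*+ *Col22a1* 0.28 (2 markers) and -0.35 to 0.13. Mural *Col12a1* was -0.022 (4 markers) and -0.027 to 1.09, and Prg4+ Clic5- *Col16a1* 0.064 (2 markers). Between injured lineages *Col14a1* was 0.15 (format block) and -0.30 to 0.15 without a library, *Col16a1* -0.088 (2 markers) and -0.16 (all stromal cells), and *Col12a1* -0.025 (all stromal cells, from 1.04). *Col14a1* was 2.30, from -0.75, for lining injury with gates of at least 4 markers, and with the format block -0.65, from 0.73, for Tom+ and -0.31, from 1.34, for Tom-GFP+ injury.

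Deviations from the group mean in same-numbered libraries had correlations of -0.098 to 0.191 over 6029 genes. Injured Tom+ and Tom-GFP+ libraries of the same number had 0.085 and 0.191, and the other pairs set a steady-state library against an injured one. Libraries of unlike number were not compared, so these values cannot show whether a number marks a mouse. No source says that it does, so the numbers were not taken to pair the samples. With the replicate number as a block, 3 collagens were called for injury in Tom+ sublining fibroblasts, 0 in the lining and 0 between injured lineages, *Col14a1* was at -0.020 (adjusted p = 0.977), and the calls over all genes were 749 against 1204, 16 against 506 and 3 against 1.

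Depth limits *Col12a1* in the steady-state lining (1 and 7 UMIs), *Col14a1* in chondrocyte and mural cells and *Col22a1* outside the lining, Prg4+ Clic5- and osteoblast gates.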
